A study of Salmo salar with 37 samples.

Results

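Interferon regulatory factor 3 (IRF3) was represented by 2 of the 43689 probes of the array, CUST_20869_PI417904088 and CUST_18686_PI417904088, referred to here as probe A and probe B in this order. They are the probes that the study described with this name in its list of transcripts differing between groups. Probe A was listed there for the ration comparison of immature males and for that of all males, and probe B for the ration comparison of maturing males. Both were thus selected on the signals of these same males, and ration differences in the comparisons that listed them are given as a description, without a test.

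In vertebrates, IRF3 is a transcription factor that rests in the cytoplasm and is activated when sensors of viral nucleic acids signal through kinases. It then enters the nucleus and switches on type I interferon genes and a set of antiviral genes directly. Interferon in turn acts through its receptor on a larger set of induced genes, among them IRF7, a relative of IRF3. The activity of IRF3 is set mostly by phosphorylation of the protein, which a transcript signal does not measure.

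Testis RNA of 37 male Atlantic salmon was hybridized with 1 male per array in a study of how energy status bears on the start of puberty. The titles of the samples place 16 males in the normal ration (NR), fed to satiation each day, and 21 in the restricted ration (RR), which received the same daily ration on alternate weekdays only; another label calls every ration normal. The names of the deposited arrays add a token LKT or HKT, which the sources used here do not spell out, and a sampling time of December, early January or late January. NR comprised 5 LKT males of December, 6 LKT males of early January and 5 HKT males of early January, and RR comprised 5 LKT males of December, 4 LKT males of early January, 7 LKT males of late January and 5 HKT males of late January. Each ration was given in a cage of its own, so that ration and cage cannot be told apart. Among HKT males, NR were all sampled in early and RR all in late January, so that ration and date cannot be told apart there either.

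Both probes had 1 spot per array, which was well above background on 37 of 37 arrays, saturated on 0 and marked as an outlier on 0. The processed intensity of probe A ranged from 120.5 to 896.1 (median 306.6) and that of probe B from 446.0 to 2039 (median 1023). Since probes differ in how they bind their target, the level of one was not compared with that of the other. Levels below are log2 processed intensities after quantile normalization between arrays, so that a difference of 1 is a doubling of signal. In whole tissue, fewer cells of a type and less RNA per cell cannot be told apart. The number of probes well above background lay between 34084 and 43287 per array, and the arrays were scanned on 2 days, with 11 NR and 6 RR males on day 1 and 5 NR and 15 RR males on day 2. All 5 transcripts of a list of steroidogenic, germ cell and testis factor probes exceeded background well on 37 of 37 arrays.

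IRF3 signal was higher in RR than in NR testes with both probes. For probe B this held in LKT males, whose values had not placed probe B itself in the study's list, although probe A had been listed for immature males. Over all males, the mean log2 signal of probe A was 7.83 ± 0.23 (SD, n = 16) with NR against 8.53 ± 0.41 (SD, n = 21) with RR. NR males lay between 7.40 and 8.29 (median 7.81) and RR males between 7.61 and 9.33 (median 8.51). The median of NR was exceeded by 20 of 21 RR males and the highest NR male by 16 of them. For probe B the mean was 9.44 ± 0.27 (SD, n = 16) with NR against 10.32 ± 0.27 (SD, n = 21) with RR. NR males lay between 9.03 and 10.01 (median 9.41) and RR males between 9.80 and 10.81 (median 10.29). With this probe the NR median was exceeded by 21 of 21 RR males and the highest NR male by 19 of them. The difference was 0.70 (SE 0.11) or 1.63-fold for probe A and 0.88 (SE 0.09) or 1.84-fold for probe B. In this comparison 0.0885% of the 40684 probes tested were called higher in RR males, at an adjusted p below 0.01 and a fold above 1.5 in limma, and nothing is read from both members being among them.

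**Figure D1:**
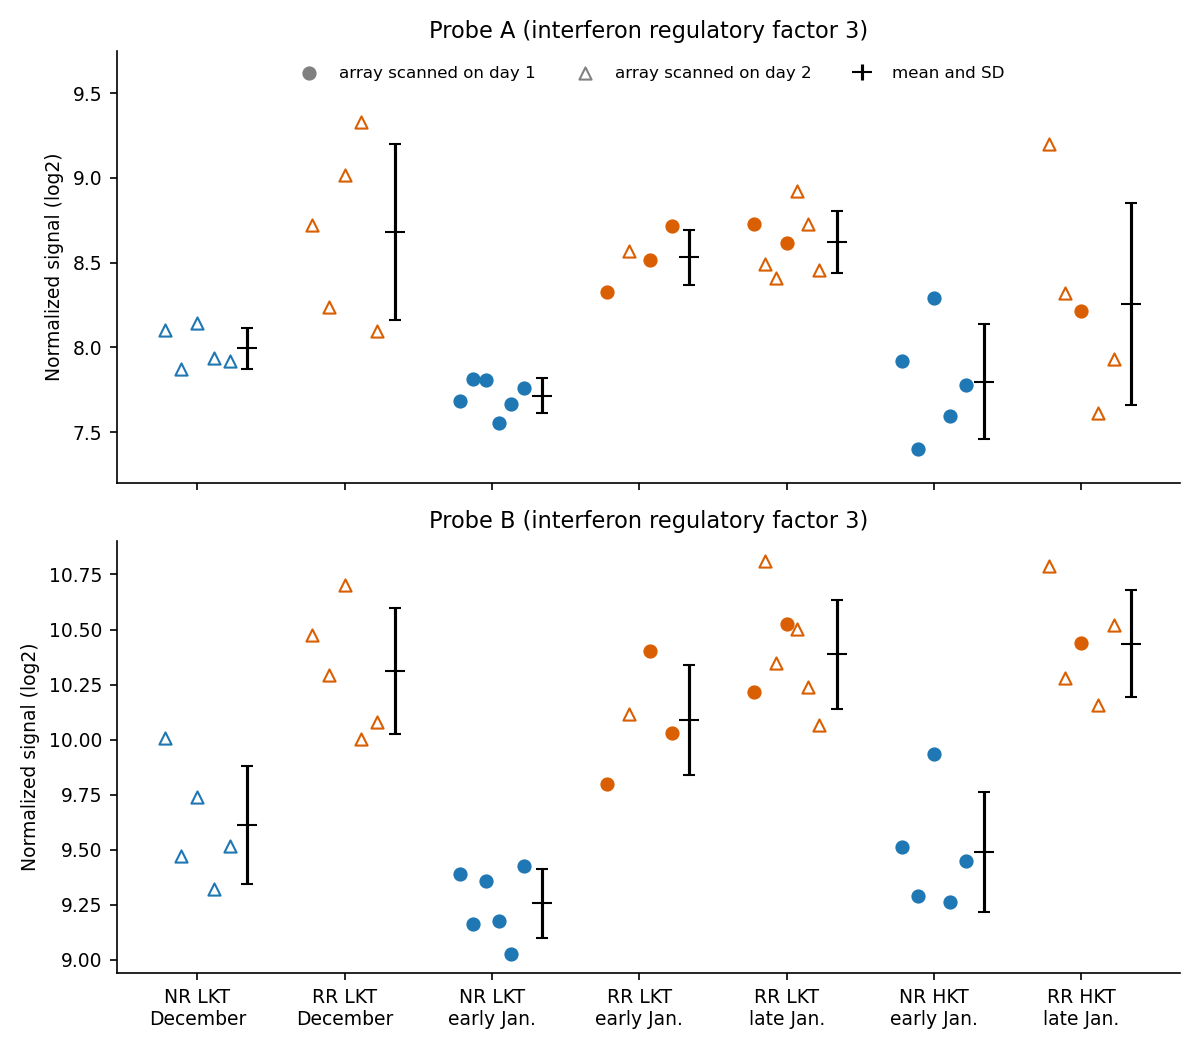
Normalized log2 signal (y axis) of probe A (top) and probe B (bottom) in each male, by ration, token and sampling time (x axis). Blue symbols are NR and orange symbols RR males, filled circles arrays of scan day 1 and open triangles arrays of scan day 2, and black bars the mean and SD; RR LKT males of early January lie above all NR LKT males of early January with both probes, while RR HKT males span 7.61 to 9.20 with probe A.

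The order of the group means was led by RR groups with both probes. For probe A the means rose from NR LKT males of early January (7.71 ± 0.10, SD, n = 6) through NR HKT males (7.80 ± 0.34, n = 5) and NR LKT males of December (7.995 ± 0.12, n = 5) to RR HKT males (8.26 ± 0.59, n = 5). RR LKT males of early January (8.53 ± 0.16, n = 4), late January (8.62 ± 0.18, n = 7) and December (8.68 ± 0.52, n = 5) followed. No neighbors in this order differed by more than the larger of their SDs. For probe B the means rose from NR LKT males of early January (9.26 ± 0.16, n = 6) through NR HKT males (9.49 ± 0.27, n = 5) to NR LKT males of December (9.61 ± 0.27, n = 5). The RR groups followed, with LKT males of early January (10.09 ± 0.25, n = 4), December (10.31 ± 0.29, n = 5) and late January (10.39 ± 0.25, n = 7) and then HKT males (10.44 ± 0.24, n = 5). Here only the step from NR LKT males of December to RR LKT males of early January exceeded both SDs.

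Whether the ration difference was present in LKT males was tested for probe B in the males of December and early January, the times at which both rations were sampled. Probe A, of the same name, had been listed for the ration comparison of immature males. Between the 2 probes r was 0.814 in the 11 NR and 0.169 in the 16 RR LKT males. The test of probe B is thus not fully independent of the listing of probe A. In December, its log2 signal was 10.01, 9.47, 9.74, 9.32 and 9.52 in the 5 NR males. In the 5 RR males of December it was 10.48, 10.29, 10.703, 10.004 and 10.08. All RR males but RR male 4 lay above every NR male, and RR male 4 lay just below NR male 1. In early January, the 6 NR males had 9.39, 9.16, 9.36, 9.18, 9.03 and 9.42. The 4 RR males of early January had 9.80, 10.12, 10.40 and 10.03, so that the groups did not overlap. The mean difference over both times was 0.77 (SE 0.11, 95% interval 0.54 to 0.99) or 1.70-fold, with an adjusted p of 0.00186 in limma, and at each time every RR male exceeded the NR median. An exact two-sided permutation test of rations within each time gave p = 3.78e-05 (52920 arrangements, adjusted p = 0.000189 over the 5 tests of this kind). Of all probes tested, 0.0221% were called higher in this comparison.

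The LKT difference of probe B was of similar size at either time, 0.70 (SE 0.16) in December and 0.83 (SE 0.16) in early January, although at neither time alone did its adjusted p pass the threshold (0.242 and 0.0426 in limma). At either time 0% of probes were called. The December arrays were all scanned on day 2. On the early January arrays of day 1 alone, with 6 NR and 3 RR males, the difference was 0.82 (adjusted p = 0.193). The values of RR LKT males of late January, which had no NR counterpart, were 10.22, 10.81, 10.35, 10.52, 10.50, 10.24 and 10.07, all above the highest of the NR males (10.01).

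Probe A differed by a like amount in the same LKT males, given as a description because the study had listed it for immature males. In December its log2 signal was 8.10, 7.87, 8.15, 7.94 and 7.92 in NR males. RR males of December had 8.72, 8.24, 9.02, 9.33 and 8.10, and RR male 5 lay among the NR males. In early January the NR males had 7.68, 7.82, 7.81, 7.55, 7.67 and 7.76. RR males of early January had 8.33, 8.57, 8.51 and 8.72, without overlap with NR. The difference was 0.69 (SE 0.21) in December, 0.82 (SE 0.21) in early January and 0.75 (SE 0.15) over both. On the early January arrays of day 1 alone it was 0.80. RR LKT males of late January, between 8.41 and 8.92, were likewise all above the highest of the NR males (8.29).

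**Figure D2:**
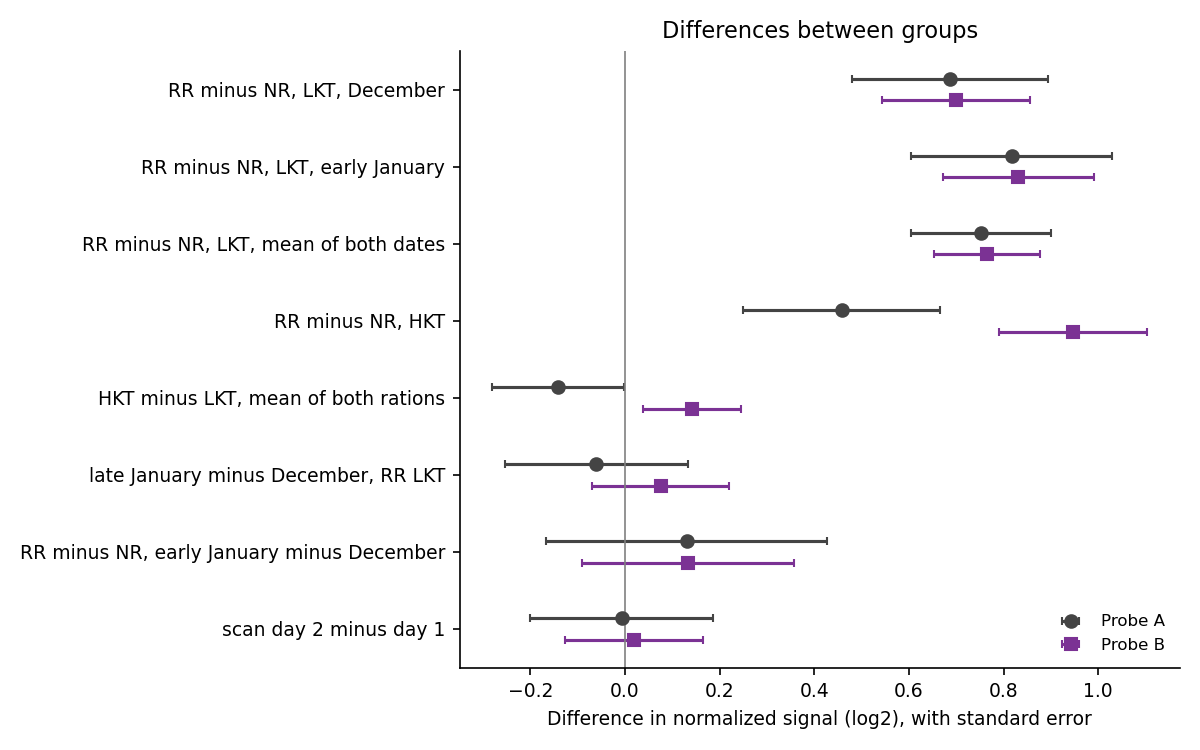
Differences in normalized log2 signal (x axis, points with standard error from limma) of probe A (grey circles) and probe B (purple squares) for each comparison (y axis). The ration differences in LKT males lie between 0.69 and 0.83 with both probes, the HKT ration differences are 0.46 and 0.95, and the differences by token, date and scan day lie between -0.14 and 0.14.

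In HKT males the RR mean lay above the NR mean with both probes. Probe B had 9.51, 9.29, 9.94, 9.26 and 9.45 in the 5 NR males. In the 5 RR males it had 10.79, 10.28, 10.44, 10.16 and 10.52, all above the highest NR male. The difference was 0.95 (SE 0.16), a description, since the study had listed this probe for maturing males. Probe A had 7.92, 7.40, 8.29, 7.596 and 7.78 in the same NR males. It had 9.20, 8.32, 8.22, 7.61 and 7.93 in the RR males, of which 2 lay above the highest NR male and RR male 20 below 3 of the 5 NR males. The difference was 0.46 (SE 0.21), and the SD in RR HKT males, 0.59, was the largest of the 7 groups for this probe. In HKT males 4.62% of the probes tested were called higher in RR. Whether the ration difference itself differed between LKT and HKT males, or between the probes, was not tested.

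Between HKT and LKT males of the same ration and month, IRF3 signal did not differ beyond the spread with either probe. NR males of early January were compared with each other, RR males of late January with each other, and the differences averaged. Probe A differed by -0.14 (HKT minus LKT, SE 0.14, 95% interval -0.42 to 0.14, adjusted p = 0.464 in limma), and an exact permutation test within rations gave p = 0.340. Probe B differed by 0.14 (SE 0.10, 95% interval -0.07 to 0.35, adjusted p = 0.311 in limma), with an exact permutation p of 0.161. This comparison called 11.2% of all probes. In NR males alone 8 probes were called (0.0197%), and in RR males alone 9406 (23.1%). As a description, probe A differed by 0.08 (SE 0.20, 95% interval -0.32 to 0.49) in NR males. In RR males it differed by -0.37 (SE 0.19, 95% interval -0.76 to 0.03), so that the average over rations joins opposite signs, although both intervals include 0. Probe B differed by 0.23 (SE 0.15) in NR and by 0.05 (SE 0.14) in RR males. The study had listed probe A for a ration difference of immature males and probe B for one of maturing males. The signs within each ration are thus not independent of the listing.

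Sampling time was tested in RR LKT males, the only group sampled in both December and late January. Probe A differed by -0.06 (late January minus December, SE 0.19, 95% interval -0.45 to 0.33, adjusted p = 0.862 in limma, exact permutation p = 0.780). Its values in December ranged from 8.10 to 9.33 and in late January from 8.41 to 8.92. Probe B differed by 0.08 (SE 0.14, 95% interval -0.22 to 0.37, adjusted p = 0.761 in limma, exact permutation p = 0.624). Of all probes, 0.0959% were called here. An unadjusted p below 0.05 in limma was found for 11364 of them, more than such a cut marks without any difference. In NR LKT males, early January was lower than December by 0.28 (SE 0.20) with probe A and by 0.36 (SE 0.15) with probe B, but all December males were scanned on day 2 and all early January NR males on day 1, so that date and scan day cannot be told apart. In RR LKT males, early January minus December was -0.15 (SE 0.22) with probe A and -0.22 (SE 0.17) with probe B. There 3 of the early January arrays were scanned on day 1 and 1 on day 2. A change of the ration difference from December to early January was not detected with probe A (0.13, SE 0.30, 95% interval -0.47 to 0.74, adjusted p = 0.970 in limma) or with probe B (0.13, SE 0.22, 95% interval -0.32 to 0.59, adjusted p = 0.958). Here 0% of probes were called in limma. Of the 40684 probes tested, 2138 had an unadjusted p below 0.05 in limma, near the number that such a cut marks without any difference.

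Scan day was estimated beside the 7 groups, from the RR groups that both days shared. Arrays of day 2 differed from those of day 1 by -0.01 (SE 0.19, 95% interval -0.40 to 0.39, adjusted p = 0.988 in limma) with probe A. With probe B they differed by 0.02 (SE 0.15, 95% interval -0.28 to 0.32, adjusted p = 0.956). Scan day called 0.0295% of all probes. An unadjusted p below 0.05 in limma was found for 7289 of the 40684 probes, more than such a cut marks without any difference. Within day 1, RR males were higher than NR males by 0.77 with probe A and 0.87 with probe B, and within day 2 by 0.54 and 0.75. These sets mix tokens and sampling times, and the NR males of day 2 were LKT males of December only. Among LKT males the differences were 0.87 and 0.94 on day 1 and 0.64 and 0.72 on day 2.

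The 2 probes followed each other closely among NR males and loosely among RR males. Within a ration the group means were left in, so that differences between tokens and sampling times enter these values. In NR males, Pearson's r between the probes was 0.809 and Spearman's rho 0.762 (n = 16, permutation p = 0.00011 and 0.00106, adjusted over 3 relations 0.00033 and 0.00318). Without the NR males farthest from the median of probe A, NR males 13 and 14, r was 0.803. Within day 1, which held the NR males of early January alone, r was 0.789 and rho 0.582 over 11 NR males. The 5 NR males of day 2 were too few. In RR males r was 0.221 and rho 0.160 (n = 21, permutation p = 0.338 and 0.490, also after adjustment). Without RR males 4 and 20 it was 0.377. It was 0.019 over 6 RR males of day 1 and 0.267 over 15 of day 2. With other processing of the signal, r lay between 0.174 and 0.410 in RR males and between 0.815 and 0.850 in NR males. A difference between the rations in r was not tested.

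The deviations of a male from its group mean had opposite signs with the 2 probes in 10 of 21 RR and in 2 of 16 NR males. RR male 4 had the highest signal of all males with probe A, 0.65 above its group mean, and the lowest of its group with probe B, 0.31 below the mean. Its array had a median processed intensity of 249.7 and 35030 probes well above background, both the lowest of scan day 2. The array of RR male 20 had 43121 such probes. Whether array quality bears on the agreement of the probes was not tested. RR males 20 and 21 were 0.64 and 0.32 below their group mean with probe A, at the level of NR males, whereas with probe B they were 0.28 below and 0.08 above and lay beyond every NR male. RR male 11 was 0.13 below its group mean with probe A and 0.43 above with probe B, and RR male 2 was 0.44 and 0.02 below. RR male 17 was high with both, by 0.94 and 0.35. Over all 37 males, the deviations from the means of the 7 groups correlated with r = 0.441 and rho = 0.431 (permutation within groups, p = 0.0179 and 0.0208, adjusted 0.0268 and 0.0311), and with 0.538 without RR males 4 and 17. Leaving out NR male 14 alone gave 0.372 (permutation p = 0.0648) and RR male 17 alone 0.350 (p = 0.0846). Within scan days r was 0.652 on day 1 (17 males, permutation p = 0.0358) and 0.382 on day 2 (20 males, p = 0.150).

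**Figure D3:**
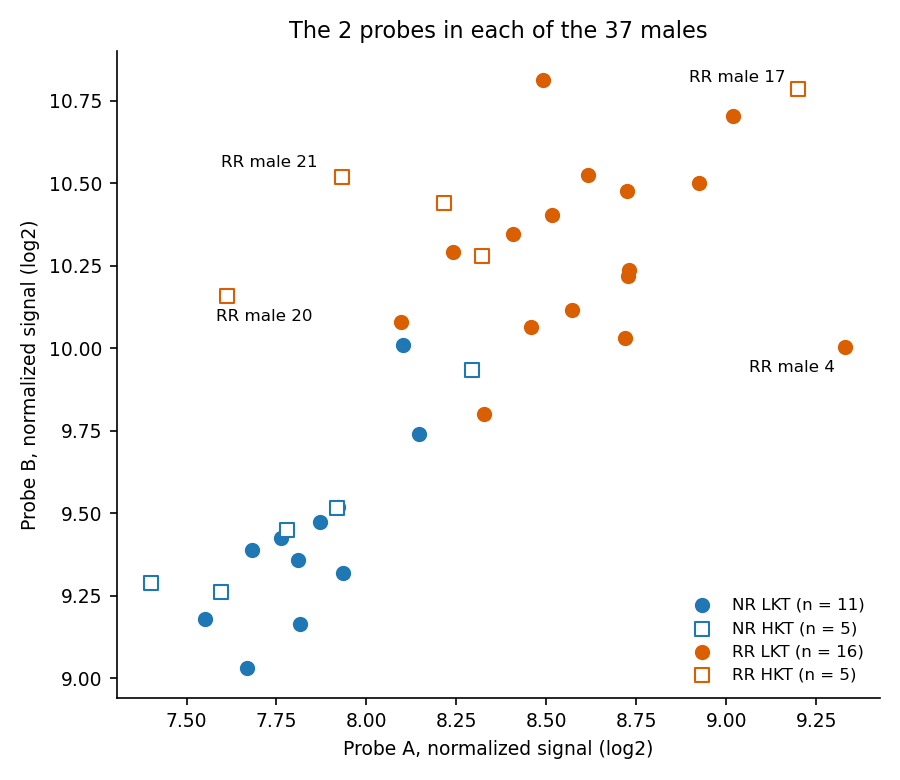
Normalized log2 signal of probe B (y axis) against probe A (x axis) in each of the 37 males, with NR males in blue, RR males in orange, LKT males as filled circles and HKT males as open squares. NR males line up (r = 0.809), whereas RR males 20 and 21 lie to the left and RR male 4 to the right of the other RR males (r = 0.221).

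The transcripts whose deviations ran closest to the 2 probes were largely different ones. The likeness was measured as Pearson's r over the 37 males after removal of the 7 group means, among 1930 probes that the study had described, all on the same arrays. For probe A it was highest for REST corepressor 3 (0.766), a JmjC histone demethylation protein 3C (0.755), type I inositol-3,4-bisphosphate 4-phosphatase (0.744), DDX58 (0.727) and liprin-beta-1 (0.726). For probe B it was highest for zinc-binding protein A33 (0.683), a PPAR A-interacting complex 285 kDa protein (0.585), interleukin-20 receptor alpha (0.578), interferon-induced protein IFI44 (0.574) and protein asteroid homolog 1 (0.570). Among all 40261 probes with complete values, probe B ranked 2580th in likeness to probe A, and probe A ranked 618th in likeness to probe B. Without removal of the group means, which leaves the ration difference in, the ranks were 13th and 21st. Probe A was then closest to DDX58 (0.874), TRIM25 (0.797), TRIM16 (0.790), zinc-binding protein A33 (0.770) and the 285 kDa protein (0.760). Probe B was closest to zinc-binding protein A33 (0.880), asteroid homolog 1 (0.851), another TRIM16 probe (0.823), DDX58 (0.813) and IFI44 (0.806).

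Other genes of the interferon response were taken from a list of 12 described probes, all 12 of them tested. The study had listed each of them as differing between groups of these males, so that their counts are not independent evidence. In LKT males 1 of 12 was called higher in RR (0.0221% of all probes) and 0 lower (0.00737%), with a median difference of 0.24, against -0.02 over all probes. In HKT males 2 were called higher (4.62% of all probes) and 1 lower (3.22%), with a median of 0.59, against -0.02 over all probes, and over all males 5 were called higher (0.0885%) and 0 lower (0.167%). Between HKT and LKT males, averaged over rations, 2 were called higher (7.05%) and 0 lower (4.19%), and by date and scan day 0 of 12 in limma. In RR males alone 2 were called higher in HKT males (13.1%) and 2 lower (10%), TRIM25 (-0.88) and interferon-induced Mx (-0.67). The study had listed these 2 for the ration comparison of immature males, so that their values are a description. In NR males alone 0 of 12 were called in limma (0.0197%).

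Among the genes of nucleic acid sensing, DDX58 (RIG-I, which binds viral RNA) differed between RR and NR LKT males by 0.73 (SE 0.17). TRIM25, the ubiquitin ligase that activates RIG-I in mammals, differed by 0.71 (SE 0.12) and was the 1 list member called in LKT males. The study had listed both for the ration comparison of immature males, so that these differences are a description. The helicase IFIH1 (MDA5) differed by 0.09 in LKT and 0.52 in HKT males. Toll-like receptor 9, which senses unmethylated DNA and in mammals signals through MyD88 to IRF7 rather than to IRF3, differed by -0.36 in LKT and -1.40 in HKT males, and was the list member called lower in the latter. The study had listed IFIH1 and Toll-like receptor 9 for maturing males.

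Among the transcription factors, IRF7 differed by 0.25 (SE 0.13) and STAT2, which carries the interferon signal to the nucleus, by 0.22 (SE 0.12) in LKT males, neither of them called. In HKT males, for which the study had listed them, the differences were 0.60 and 0.58. Their deviations correlated with those of probe B at 0.534 and 0.454, and with those of probe A at 0.210 and 0.253 (n = 37, same arrays).

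Among the interferon-induced genes, Mx, a GTPase that blocks virus replication, differed by 0.68 in LKT and 0.19 in HKT males. IFI44 differed by 0.91 and 0.77, the protein with tetratricopeptide repeats (IFIT1-like) by 0.47 and 1.07, and the 35 kDa protein homolog by 0.00 and 0.61. Of these the study had listed Mx and IFI44 for immature males and the other two for maturing males. The RNA-activated protein kinase and the 6-16 family probe, both listed by the study for maturation, differed by -0.05 and -0.09 in LKT and by 0.72 and 0.115 in HKT males. The kinase was called in HKT males (adjusted p = 3.58e-05 in limma), as was the IFIT1-like probe. The kinase and the 6-16 family probe were the 2 called higher in HKT than in LKT males, by 0.80 and 0.81. The mean level of the 12 probes lay between 9.725 and 10.46 in NR and between 10.21 and 10.84 in RR males. Its deviations correlated at 0.736 with those of probe B and at 0.321 with those of probe A (n = 37). Single members lay between -0.138 and 0.574 with probe B and between -0.335 and 0.727 with probe A. The kinase and the 6-16 family probe were negative with both. Over single probes of the array the median r was 0.047 with probe B and 0.026 with probe A.

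**Figure D4:**
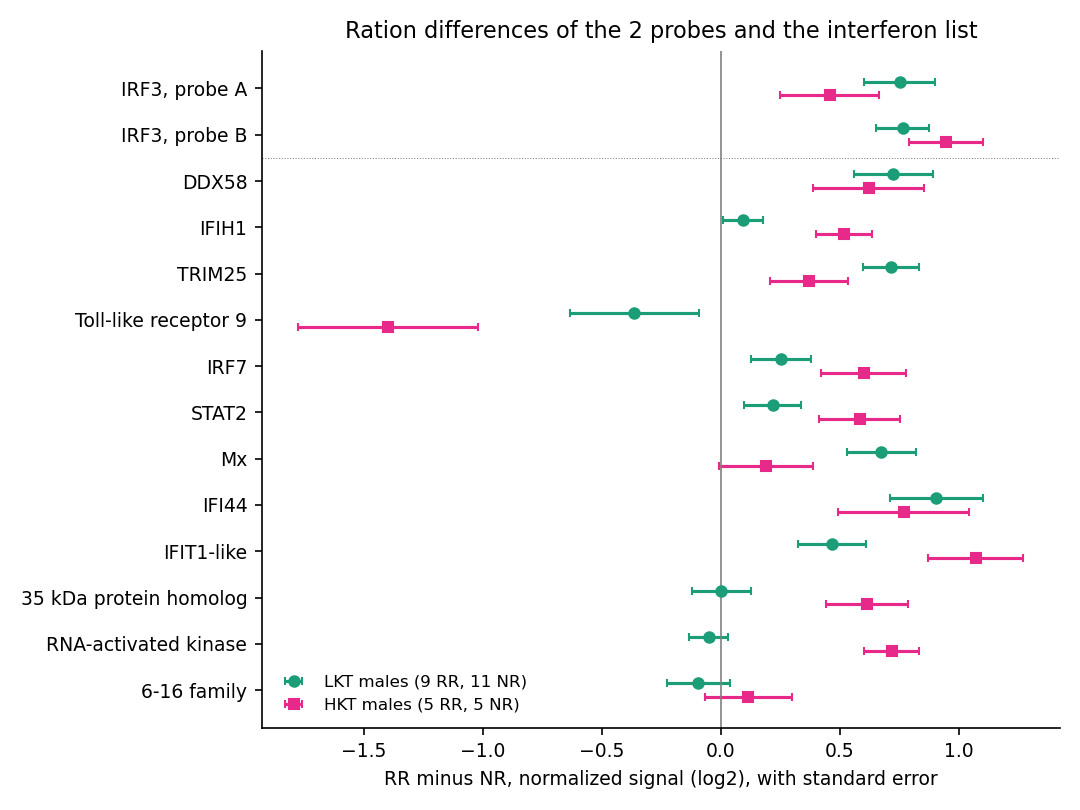
Difference in normalized log2 signal between RR and NR males (x axis, points with standard error from limma) for the 2 IRF3 probes and the 12 interferon response probes (y axis), in LKT males of December and early January (green circles, 9 RR and 11 NR) and in HKT males (pink squares, 5 RR and 5 NR). Probe A, DDX58, TRIM25, Mx and IFI44, which the study had listed for immature males, exceed 0.6 in LKT males. Probe B, which it had listed for maturing males, exceeds 0.6 there as well. IRF7 and STAT2, also listed for maturing males, lie at 0.25 or below there.

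Levels of blood and testis cell markers were set beside these differences. Of 7 erythroid probes (hemoglobin subunits and an erythroid synthase of heme precursors), 5 were called lower in RR over all males (0.167% of all probes) and 0 higher. These 5 are the ones that the study had listed for this same comparison, and nothing is read from their calls. With scan day as a block 0 probes of the array were called lower in limma, so that the 5 calls were lost, and the median scan day difference of the 7 probes (day 2 minus day 1) was -0.49, with 0 of them called in limma. Among LKT males the median ration difference of the 7 probes was -0.70, with 0 called in limma (0.0295% of all probes). In December alone, with all arrays scanned on day 2, it was -0.90, again with 0 called (0% of all probes). In HKT males it was -1.22 and 1 was called lower (3.22% of all probes), a hemoglobin probe that the study had listed for maturing males. In each of these comparisons 1 of the 7 probes was higher in RR. Their mean level lay between 13.03 and 15.86 in RR and between 14.71 and 15.87 in NR males. The deviations of this level correlated at -0.147 with probe A and 0.222 with probe B. Of 5 leukocyte probes (T-cell receptor, CD20 family, macrophage mannose receptor, neutrophil cytosolic factor), 0 were called between rations in LKT males in limma (0.0295% of all probes). In HKT males 2 were called higher (4.62% of all probes), the T-cell receptor probes (1.11 and 1.15, both listed for maturing males). There 1 was called lower (3.22%), the neutrophil factor (-0.59). The mean level of the 5 leukocyte probes lay between 11.14 and 11.41 in RR HKT and between 10.59 and 10.98 in NR HKT males. Of the 5 testis probes, 1 was called lower in RR LKT males (0.00737% of all probes) and 0 higher (0.0221%). The 1 called was sperm-associated antigen 6 (-0.70, SE 0.12, adjusted p = 0.00783 in limma), and the median of the 5 was -0.48. Noggin-3, which the study had listed for immature males, went the other way there (0.77, SE 0.21, not called). In HKT and over all males 1 was called lower (3.22% and 0.167% of all probes), structural maintenance of chromosomes protein 1B (-0.95 and -0.60). The study had listed it for all males, and the medians of the 5 were -0.455 and -0.58. Sperm-associated antigen 6 was higher in RR among HKT males (0.47, SE 0.17, not called), so that the mean level of this list averages probes that differed in opposite directions. The mean level of the testis probes lay between 10.299 and 11.35 in RR and between 10.66 and 11.60 in NR males, and its deviations correlated at -0.226 with probe A and 0.204 with probe B. Each probe of the blood cell lists exceeded background well on 37 of 37 arrays. The part of these cells in the IRF3 differences was not tested.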

How the data were processed

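Testis RNA of each male was labeled with Cy3 and hybridized to a one-color Agilent array with 45106 spots, of which 1417 were controls. The authors deposited linear spot intensities (processed, median and background-subtracted signal, with quality marks) from Feature Extraction version 10.7.1.1, before normalization between arrays, and a log2 table. The deposited log2 table held the background-subtracted intensity on the log2 scale, unnormalized (over 1589471 values the difference was at most 5e-09), and 0 of its columns belonged to a sample outside the 37. Genome build and probe sequences are not given in the sources used here, and 0 of 43689 probes could be matched to the salmon gene table by their systematic name, so that genes carry the names of the study's list, without position or sequence.

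Processed intensities were log2-transformed and quantile normalized with limma 3.58.1 (R 4.3.3) after removal of control spots, with 581 outlier spots set to missing. Tests covered 40684 probes, those with at least 16 arrays well above background. A model with 7 groups of ration, token and sampling time (scan day added only to estimate it) was fitted with lmFit and eBayes; for all males, RR was compared with NR alone. A probe was called where the fold exceeded 1.5 and the p adjusted after Benjamini-Hochberg was below 0.01; intervals are at 95%. Single values were tested by exact permutation, correlations with 100000 permutations. Functions were tested on simulated data. The number of arrays limits the precision.

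Rations were taken from the sample titles. Tokens and sampling times were read from the names of the deposited arrays and are not in the labels. Scan day and slide came from the file headers. Since each male was 1 array, p-values cover the spread between males within a cage.

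The members, lists and tests were chosen with earlier results of these data known. Probes named are the members, the interferon list, and for each member the 5 described probes with the highest r, by deviations and by values. From the interferon list, 1 probe is not reported here and was left out of its counts and levels. Alternatives were 75th percentile scaling, 2 other filters, normexp on the median signal (offset 50), the deposited log2 table with quantile normalization, scan day or replicate number as a block, slide as a random block, array weights, the groups compared alone, the methods' t-test, and each male left out. Values within a sampling time or scan day were added after the data had been seen. Of 16 pairs of males with the same replicate number, 6 had deviations from their ration means that correlated over 0.1 (median 0.064). Some of these pairs also shared token and sampling time, so that this check cannot show whether more than a number was shared. The main fits did not treat males as paired.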

Additional observations from a re-analysis of the deposited data

How the results depend on the processing

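Of 644 alternative values of 15 results, 616 were counted as unchanged. For tested results this means that the direction and the side of the threshold were kept. For the ration differences given as a description, it means that the direction was kept and the value moved by less than the residual SD. That SD was 0.33 for probe A and 0.25 for probe B, and no threshold was applied to these. The LKT ration difference of probe B (0.77) stayed between 0.71 and 0.81 with each male left out, called in all 37 cases, and between 0.69 and 0.82 over the other alternatives. It was not called with the replicate block (0.75, adjusted p = 0.0745 in limma). Nor was it called with December alone (0.70, adjusted p = 0.242 in limma) or early January on scan day 1 alone (0.82, adjusted p = 0.193). These settings leave fewer degrees of freedom or compare fewer males, and why the calls were lost was not tested. With scan day as a block this difference of probe B was 0.76 (adjusted p = 0.00383 in limma). No other fit with the replicate block changed a described direction. The date difference of probe A (-0.06) was 0.10 with 75th percentile scaling, which moved the median of all probes from -0.04 to 0.13, and 0.16 with array weights. With a male left out it lay between -0.21 and 0.10, and that of probe B between -0.0013 and 0.17. The scan day difference of probe A (-0.0068) was 0.20 with 75th percentile scaling (median of all probes 0.15), 0.080 with normexp, 0.17 with the deposited log2 table and 0.047 with array weights, and lay between -0.087 and 0.048 with a male left out. That of probe B (0.02) was -0.0026 with normexp and lay between -0.035 and 0.072 with a male left out. The change of the ration difference with date lay between -0.016 and 0.29 for probe A with a male left out. None of these small differences was called in any alternative, and the cause of the changes in sign was not tested. The correlation of the deviations (0.441) lost its call on scan day 2 alone (0.382) and without NR male 14 or RR male 17, and lay between 0.350 and 0.611 with a male left out. The correlation in RR males (0.221) was 0.174 with 75th percentile scaling. It was 0.377 with normexp (permutation p = 0.0929) and 0.410 with the deposited log2 table (permutation p = 0.0652).

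The number of probes called depended on the setting more than the members did. In LKT males 12 were called, 2 with scan day as a block, 1 with the replicate block, 7 with the groups compared alone, 49 with array weights and between 2 and 25 with a male left out. By date 39 were called, 9 with the deposited log2 table, 0 with the groups compared alone or the methods' t-test in place of limma, 75 with array weights, 156 with scan day as a block and between 0 and 167 with a male left out. By scan day 12 were called (0 higher), and 98 (45 higher) with 75th percentile scaling, 71 with normexp, 37 with the deposited log2 table and 29 with array weights. Over all males 104 were called, 9 with scan day as a block and 290 with the replicate block. The TRIM25 call in LKT males was lost with scan day or replicate number as a block and without any one of NR males 1, 2, 3, 5, 8, 9 and 10 and RR males 6, 7, 8 and 9, so that 0 of the 12 list probes were then called in limma, and 2 were with array weights. Over all males, 0 of the 12 were called in limma with scan day as a block.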
